A study of Mus musculus with 12 samples.

Results

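10 genes of the Notch pathway were followed in mouse granulocyte-macrophage progenitors (GMP), the bone marrow cells that give rise to neutrophils and monocytes: the receptors Notch1, Notch2, Notch3 and Notch4, the ligands Jag1 and Jag2, the nuclear partner Rbpj, the ubiquitin ligase Dtx4 and the target genes Hes1 and Heyl. They were chosen by name, and the array files carry these names for 13 of the array's 39429 probes. A gene was tested where its probe was well above background throughout 1 group or more, which held for 9 of the 13 probes and 7 of the 10 genes, and for 17905 genes in all. Hes1, Heyl and Jag1 were well above background on no array, and for them no difference was tested.

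The study used Agilent one-colour arrays to look for genes that depend on the transcription factor Runx1 in GMP, with 12 arrays in 4 groups. Wild-type GMP (wt, n = 4) came from Runx1+/+-Tg(vav-Cre) mice and Runx1-deleted GMP (ko, n = 4) from Runx1fl/fl-Tg(vav-Cre) mice, so that both carry a Cre recombinase driven in blood cells by the vav promoter. For the other groups, bone marrow of Runx1fl/fl-Tg(vav-Cre) donors was taken on day 3 after 150 mg/kg of 5-fluorouracil, infected with a retrovirus encoding GFP with either ERt2, a tamoxifen-responsive receptor domain (ERt2, n = 2), or RUNX1 fused to it (RUNX1-ERt2, n = 2), and transplanted into lethally irradiated hosts. GFP-positive GMP were sorted after 6 weeks, 24 hours after the last of 3 daily injections of tamoxifen at 49.5 µg per g. The protocol reports the injections for a portion of the animals and does not say for each array whether its animals were among them. Both transplanted groups share the floxed alleles, the infection, the irradiated host and the vector, and differ in the RUNX1 part of the insert. They also differ in slide, and may differ in tamoxifen. The labels give neither the ages of the mice nor whether an array holds 1 animal or a pool. Since nothing says that replicates are separate animals, the p-values are set against a spread that may be technical.

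Notch receptors sit in the cell membrane and are activated when a ligand of the Jagged or Delta-like family on a neighbouring cell binds them. Cleavage then frees the intracellular part of the receptor, which enters the nucleus and turns the DNA-binding protein Rbpj from a repressor into an activator of targets such as the Hes and Hey genes. Deltex proteins such as Dtx4 are ubiquitin ligases that act on the trafficking of the receptor. In blood formation the pathway is best known for the choice of the T cell fate, and in the myeloid lineages it is regarded as a restraint on GMP output.

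Levels are log2 processed signals minus that of the array's 75th percentile, so that 0 is the signal that 25% of probes exceed, and each step of 1 is a doubling. Between 53.5% and 63.2% of probes per array were well above background. The wt and ko arrays of replicates 1 and 2 shared slide 1 and those of replicates 3 and 4 shared slide 2, while each transplanted group had a slide of its own, so that slide and group cannot be told apart there. All 12 genes of a GMP list (Mpo, Elane, Prtn3 and others) were well above background on every array. Of the B lineage list 8 of 10 genes could be tested, and of the T and NK cell list 10 of the 11 on the array. Only Pax5 of the former and Cd8a of the latter were well above background on no array. The brighter of both Runx1 probes gave 1.18 to 2.23 in wt, 2.87 to 4.20 in ko, 3.14 to 3.29 in ERt2 and 1.92 to 2.33 in RUNX1-ERt2. The labels do not name the floxed exons, so these probes do not check the deletion.

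**Figure D1:**
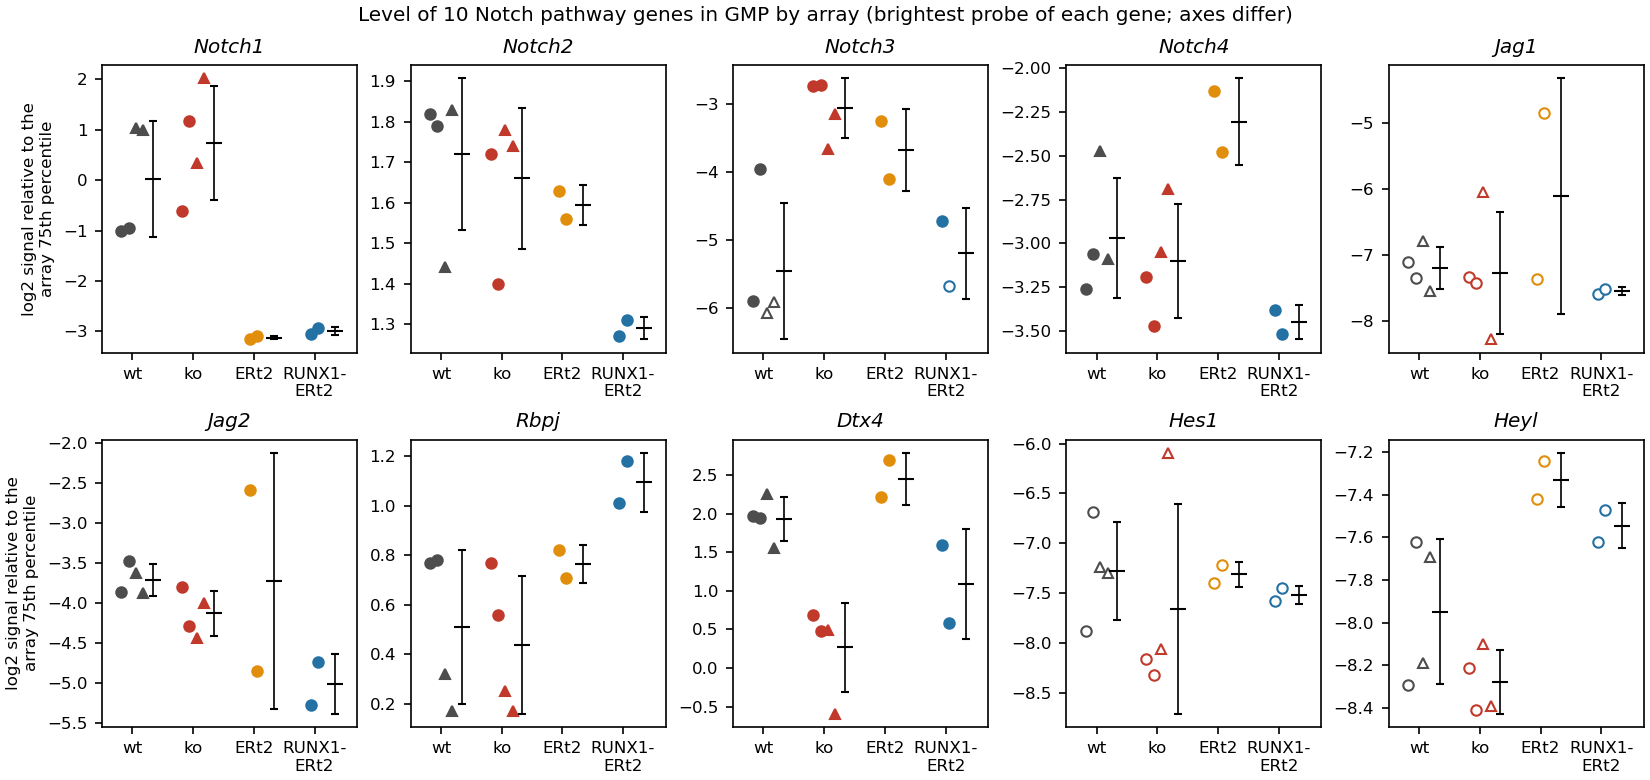
Log2 signal of each gene's brightest probe relative to the array's 75th percentile, by array, in the 4 groups; triangles are slide 2 and circles the other slides, open symbols are not well above background, and black bars are the mean with SD (n = 4, 4, 2 and 2). Dtx4 was lower and Notch3 higher on all 4 ko arrays than on all 4 wt arrays, and Notch1 was lower on all 4 transplanted arrays than on the 8 others.

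Where a gene has a pair of probes, the pair did not always behave alike, and the 60-base oligos of the probes that set the pairs apart are printed for that reason. The files place them, in mm9, at chr2:26319440-26319499 on the minus strand (the brighter Notch1 probe), chr3:97951233-97951292 on the plus strand (the dimmer Notch2 probe) and chr5:54044777-54044836 on the plus strand (the dimmer Rbpj probe). Each reads through without a stop codon in at least 1 of its 3 forward frames. The partner probes lie 4750 bases away for Notch1, 2621 for Notch2 and 3666 for Rbpj. The files do not say whether a probe lies in an exon's coding part or its UTR.
Notch1 brighter probe: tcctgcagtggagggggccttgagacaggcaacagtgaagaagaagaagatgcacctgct
Notch2 dimmer probe: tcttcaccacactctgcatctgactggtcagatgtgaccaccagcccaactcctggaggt
Rbpj dimmer probe: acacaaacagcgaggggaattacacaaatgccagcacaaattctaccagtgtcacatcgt

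Among the receptors, Notch3 was the one that passed the test in ko against wt. Its probe (chr17:32257848-32257907, mm9) gave −5.89, −3.96, −6.07 and −5.90 in wt replicates 1 to 4 and −2.74, −2.73, −3.66 and −3.15 in ko replicates 1 to 4. All 4 ko arrays lay above all 4 wt arrays, and the signal cleared background on all 4 ko arrays but on 2 of 4 wt arrays, replicates 1 and 2. Notch3 was higher in ko by 2.39 ± 0.40 (SE) on the log2 scale, or 5.22-fold (limma, adjusted p = 0.00357). Processed signals were 18.2 and 15.7 on wt replicates 3 and 4. The lowest signals well above background there were 18.76 and 20.79, so the fold is uncertain. The probe met the filter through ko and ERt2, where it was high, so the call is not independent of the filter. The difference was 2.19 among the slide 1 arrays and 2.58 among those of slide 2. With normexp in place of the scanner's background subtraction the difference was 0.73 and no longer passed the test (adjusted p = 0.271).

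Markers of other cells moved with Notch3 in the same comparison, in which 25.3% of all genes passed the test (11.5% higher and 13.8% lower). Of the megakaryocyte and platelet list, 8 of 14 tested genes passed the test, each of them higher in ko, and the list's summed level (signal over the 75th percentile of the array, added over its genes) was 12 to 18.1 in wt and 53.2 to 69.2 in ko. Clec1b, a receptor on platelets, rose by 4.41 ± 0.65 (SE, adjusted p = 0.00187 in limma) and Treml1, a platelet granule protein, by 4.30 ± 0.40 (adjusted p = 0.00017). Of the endothelium list, 5 of 9 passed, each higher in ko, and the summed level was 7.22 to 7.72 in wt and 10.2 to 13.9 in ko, with Cdh5, Cldn5 and Sox17 well above background on no array. The stem and early progenitor list had 5 genes higher and 3 lower of 11 tested (21.6 to 25.0 in wt, 34.4 to 42.0 in ko). Of the stroma list 1 of 5 passed, lower in ko, with Col3a1 and Pdgfra well above background on no array. The part of these cells in the Notch3 result was not tested. In such bulk samples, a change in the share of a cell type and a change in RNA per cell cannot be told apart.

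In the transplanted groups, Notch3 gave −3.25 and −4.10 in ERt2 and −4.72 and −5.67 in RUNX1-ERt2, where 1 of 2 arrays was well above background. Both RUNX1-ERt2 arrays were below both ERt2 arrays, but the difference of −1.52 (95% interval −2.81 to −0.24) did not pass the test (adjusted p = 0.0983 in limma). Leaving out wt replicate 2, which stood far above the other wt arrays and enters this test through the shared estimate of the spread, gave the same difference with an adjusted p of 0.0287. The order of the group means was ko, ERt2, RUNX1-ERt2 and wt, of which the neighbours ERt2 and RUNX1-ERt2 did not overlap while ko and ERt2, and RUNX1-ERt2 and wt, did.

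Notch4, a receptor known mainly from endothelium, changed between the transplanted groups. Its probe (chr17:34725120-34725179, mm9) gave −2.13 and −2.48 in ERt2 and −3.38 and −3.52 in RUNX1-ERt2, against −3.26, −3.06, −2.47 and −3.09 in wt and −3.19, −3.47, −3.05 and −2.69 in ko, all well above background. The ERt2 pair stood above the RUNX1-ERt2 pair, and the wt and ko arrays overlapped. Notch4 was lower in RUNX1-ERt2 than in ERt2 by 1.14 ± 0.23 (SE) on the log2 scale, or 2.21-fold (limma, adjusted p = 0.00758). The call ended without ERt2 replicate 1 (−0.97, adjusted p = 0.0554) and with normexp (−0.79, adjusted p = 0.271). Between ko and wt the difference was −0.13 (95% interval −0.49 to 0.23, adjusted p = 0.59). Of the endothelium list, 0 of 9 tested genes passed in RUNX1-ERt2 against ERt2, beside 19.1% of all genes. The list's summed level was 7.14 to 9.71 in ERt2 and 7.75 to 8.2 in RUNX1-ERt2. The part of endothelial cells in the Notch4 result was not tested.

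Notch1, the receptor required for T cell commitment, was set apart by the transplanted arrays. Its brighter probe gave −1.01, −0.94, 1.03 and 0.99 in wt and −0.62, 1.17, 0.34 and 2.02 in ko, but −3.15 and −3.10 in ERt2 and −3.05 and −2.93 in RUNX1-ERt2. All 4 transplanted arrays lay below all 8 native arrays, and within wt the slide 2 arrays lay above the slide 1 arrays. Notch1 was lower in ERt2 than in ko by 3.86 ± 0.55 (SE) on the log2 scale, or 14.5-fold (limma, adjusted p = 0.000362), a comparison in which transplantation, infection and slide differ, and tamoxifen where it was given. Beside 30.2% of all genes that were higher and 26.7% that were lower there, the T and NK cell list had 1 of 10 higher and 5 lower, though its summed level was 37.2 to 49.7 in ERt2 and 10.2 to 15.3 in ko. The megakaryocyte and platelet list had 1 of 14 higher and 7 lower (18.1 to 38.3 in ERt2, 53.2 to 69.2 in ko), the stem and early progenitor list 1 of 11 higher and 6 lower (13.9 to 23.6 and 34.4 to 42.0), and the neutrophil list 7 of 12 that passed, each higher. The part of these cells in the Notch1 result was not tested. Between ko and wt it differed by 0.71 (95% interval −0.30 to 1.72, adjusted p = 0.282), slide 1 giving 1.25 and slide 2 giving 0.17, and by 1.16 with an adjusted p of 0.0437 when ko replicate 3 was left out. Between RUNX1-ERt2 and ERt2 it differed by 0.14, with an interval of −1.29 to 1.57 that leaves room for a change in either direction.

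The dimmer Notch1 probe (chr2:26314630-26314689, mm9) did not pass the filter. It was well above background on 6 of 12 arrays, namely wt replicates 1 to 3, ko replicates 1 and 2 and RUNX1-ERt2 replicate 1. Its levels were −5.45, −5.31, −5.09 and −5.56 in wt, −4.08, −5.07, −6.74 and −6.68 in ko, −6.87 and −7.06 in ERt2 and −4.85 and −6.24 in RUNX1-ERt2. With 6 arrays not well above background, the order of the groups cannot be read from this probe. Among the arrays that were, RUNX1-ERt2 replicate 1 lay among the native ones.

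Notch2, the receptor with the least spread in the native groups, gave 1.82, 1.79, 1.44 and 1.83 in wt and 1.72, 1.40, 1.78 and 1.74 in ko on its brighter probe (chr3:97953914-97953973, mm9). It gave 1.63 and 1.56 in ERt2 and 1.27 and 1.31 in RUNX1-ERt2. The last pair was the lowest of the 12 arrays, yet no difference passed the test. The difference was −0.06 in ko against wt (95% interval −0.33 to 0.21, adjusted p = 0.755), −0.30 in RUNX1-ERt2 against ERt2 (−0.69 to 0.08, adjusted p = 0.266) and −0.06 in ERt2 against ko (−0.40 to 0.27, adjusted p = 0.728).

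The dimmer Notch2 probe, printed with the oligos, gave −4.88, −5.20, −4.82 and −4.95 in wt and −4.64, −4.98, −4.70 and −4.70 in ko, and −3.98 and −4.05 in ERt2 and −4.39 and −4.27 in RUNX1-ERt2. Here the transplanted arrays were the highest, whereas on the brighter probe the RUNX1-ERt2 pair was the lowest. With every probe tested on its own, the scaled level of the dimmer probe was higher in ERt2 than in ko by 0.74 ± 0.13 (SE, limma, adjusted p = 0.00109). The probes therefore gave different results for Notch2 in that comparison, and the one that changed was close to background. The mean of both gave 0.34 (adjusted p = 0.0321), and the brighter probe alone turned to 0.13 with scaling to the array median and 0.12 in the series matrix, neither of which passed the test.

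**Figure D2:**
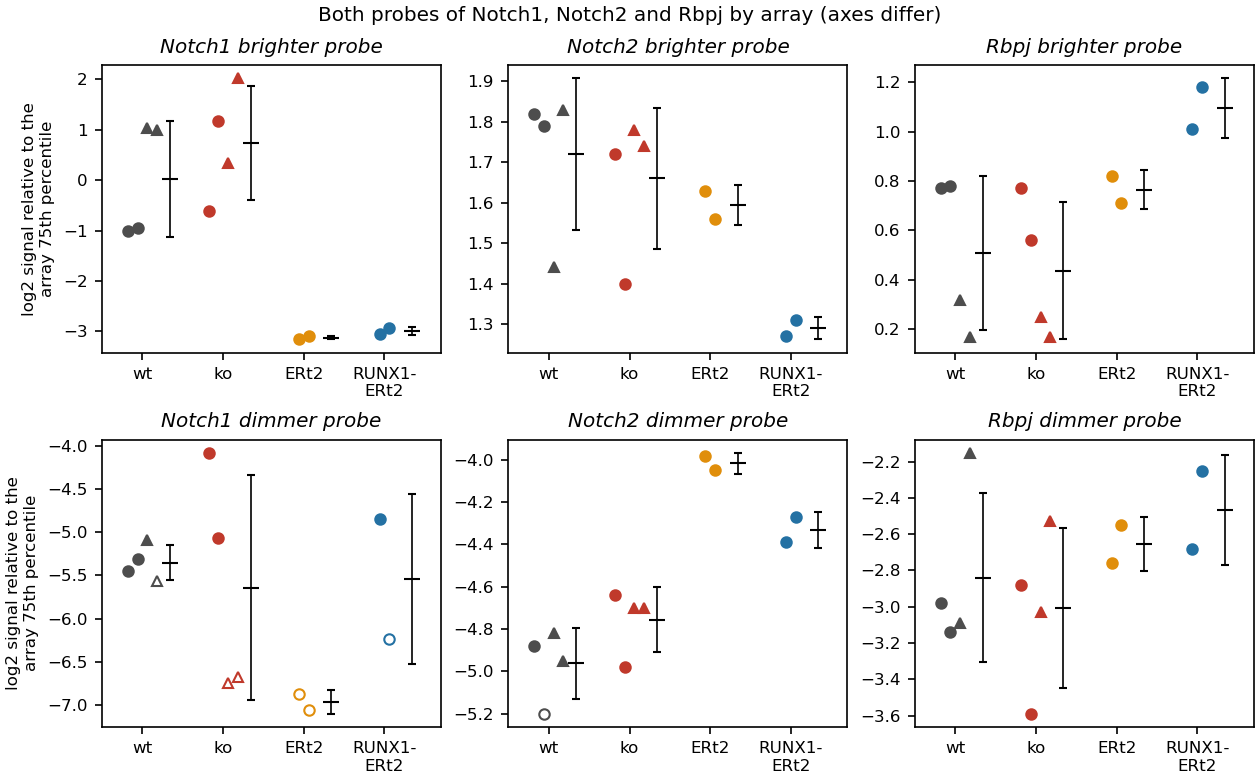
Log2 signal relative to the array's 75th percentile of the brighter (top) and dimmer (bottom) probe of Notch1, Notch2 and Rbpj by array; symbols and bars are as in the plot of gene levels. The transplanted arrays were the lowest on the brighter Notch1 probe, at −3.15 to −2.93, and the highest on the dimmer Notch2 probe, at −4.39 to −3.98. That Notch2 probe was close to background on all arrays (processed signals of 30.4 to 61.4).

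Of the ligands, Jag2 alone could be tested. Its probe (chr12:114146887-114146946, mm9) gave −3.86, −3.47, −3.63 and −3.88 in wt and −3.80, −4.28, −4.43 and −4.00 in ko, and −2.59 and −4.85 in ERt2 and −5.27 and −4.74 in RUNX1-ERt2, well above background on all 12 arrays. The ERt2 pair held the highest array and an array below all native ones, so that it overlapped every other group. The RUNX1-ERt2 arrays lay below all native arrays, while wt and ko overlapped. Processed signals were 29.2 on ERt2 replicate 2 and 25.7 and 38.0 on RUNX1-ERt2 replicates 1 and 2. They were close to background, as the lowest signals well above it on those arrays were 24.91, 22.04 and 24.26. The difference was −0.42 in ko against wt (95% interval −1.34 to 0.51, adjusted p = 0.5) and −1.29 in RUNX1-ERt2 against ERt2 (−2.60 to 0.03, adjusted p = 0.166), neither past the test.

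The Jag2 values with ERt2 turned on which ERt2 array was kept. Without ERt2 replicate 2 the difference from RUNX1-ERt2 was −2.42 (limma, adjusted p = 0.00204) and that from ko 1.54 (adjusted p = 0.00373), and without ERt2 replicate 1 they were −0.16 (adjusted p = 0.813) and −0.72 (adjusted p = 0.0684). Jag1, the other ligand (chr2:136907433-136907492, mm9), was well above background on no array. Its processed signals ran from 3.63 to 29.2, the last on ERt2 replicate 2, while the lowest signals well above background on the 12 arrays ran from 15.4 to 34.4.

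Rbpj, the DNA-binding partner of all 4 receptors, gave 0.77, 0.78, 0.32 and 0.17 in wt, 0.77, 0.56, 0.25 and 0.17 in ko, 0.82 and 0.71 in ERt2 and 1.01 and 1.18 in RUNX1-ERt2 on its brighter probe (chr5:54048503-54048562, mm9). The wt and ko arrays ran in parallel over the slides, with slide 1 above slide 2, and the RUNX1-ERt2 pair was the highest. Between ko and wt Rbpj differed by −0.07 (95% interval −0.26 to 0.11, adjusted p = 0.567 in limma). Between RUNX1-ERt2 and ERt2 the difference of 0.33 (0.06 to 0.59) did not pass the test (adjusted p = 0.0848).

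Rbpj was higher in ERt2 than in ko by 0.33 ± 0.10 (SE), or 1.25-fold (limma, adjusted p = 0.0212), but 9 of 24 alternative settings ended that call. Blocking on replicate number brought the difference to 0.08 (adjusted p = 0.553), and it was 0.33 with an adjusted p of 0.234 with no slide term. Leaving out 1 array ended it for ko replicate 2 (0.28, adjusted p = 0.0536), ERt2 replicate 1 (0.27, adjusted p = 0.128) and ERt2 replicate 2 (0.38, adjusted p = 0.051). The dimmer Rbpj probe gave −2.98, −3.14, −3.09 and −2.15 in wt, −2.88, −3.59, −3.03 and −2.53 in ko, −2.76 and −2.55 in ERt2 and −2.68 and −2.25 in RUNX1-ERt2, with overlap between all groups.

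Dtx4, the Deltex ubiquitin ligase, was lower when Runx1 was deleted. Its probe (chr19:12540935-12540994, mm9) gave 1.97, 1.94, 2.25 and 1.55 in wt and 0.69, 0.48, 0.49 and −0.59 in ko, all well above background. All 4 ko arrays lay below all 4 wt arrays, and ko replicate 4 lay lowest. Dtx4 fell by 1.66 on the log2 scale (SE 0.31), or 3.16-fold (limma, adjusted p = 0.00528). Slide 1 alone gave −1.37 and slide 2 alone −1.95.

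In the transplanted groups Dtx4 gave 2.21 and 2.69 in ERt2 and 1.59 and 0.59 in RUNX1-ERt2. Transplanted Runx1-deleted cells with the control vector thus gave Dtx4 signals in the range of wt or above, and both RUNX1-ERt2 arrays lay below both ERt2 arrays. Dtx4 was higher in ERt2 than in ko by 2.18 ± 0.37 (SE), or 4.53-fold (limma, adjusted p = 0.00106). The difference of RUNX1-ERt2 from ERt2 was −1.36 (95% interval −2.33 to −0.38, adjusted p = 0.0577), which passed the test when replicate numbers formed a block (adjusted p = 0.0305). It was −0.86 without RUNX1-ERt2 replicate 2 (adjusted p = 0.302) and −1.85 without RUNX1-ERt2 replicate 1 (adjusted p = 0.0358). Without wt replicate 3 (adjusted p = 0.0471) or ko replicate 4 (adjusted p = 0.029) it also passed.

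Markers of the GMP itself and of other cells also changed in the comparisons given for Dtx4. Their counts stand beside 25.3% of all genes that passed in ko against wt (11.5% higher and 13.8% lower). For ERt2 against ko the share was 56.9% (30.2% higher and 26.7% lower). For RUNX1-ERt2 against ERt2 it was 19.1% (10.2% higher and 8.87% lower). The GMP list had 5 of 12 genes lower and 1 higher in ko than in wt (summed level 661 to 923 in wt, 444 to 581 in ko), 9 of 12 passed as higher in ERt2 than in ko (996 to 1130 in ERt2), and 5 of 12 passed as lower in RUNX1-ERt2 than in ERt2 (517 to 720 in RUNX1-ERt2). Of this list, Cebpa, a transcription factor needed to form GMP, differed by −0.92 ± 0.16 (SE, adjusted p = 0.00369 in limma) between ko and wt. Ms4a3 differed by −1.56 there (adjusted p = 0.0114). Between RUNX1-ERt2 and ERt2, Cebpa differed by 0.08 (adjusted p = 0.862), whereas Csf1r fell by 2.44 (adjusted p = 0.00352) and Elane by 2.38 (adjusted p = 0.0123). The neutrophil list summed to 542 to 673 in ERt2, 123 to 142 in RUNX1-ERt2, 52.4 to 285 in wt and 22.4 to 283 in ko. Of its 12 genes, 1 passed in RUNX1-ERt2 against ERt2, lower, and 1 was higher and 1 lower in ko against wt. The monocyte and macrophage list summed to 92.8 to 113 in ERt2, 18.6 to 25.4 in RUNX1-ERt2, 42.0 to 74.5 in wt and 21.1 to 62.0 in ko. In ko against wt, 4 of 10 genes of the monocyte list passed, each lower, and the basophil and mast cell list had 3 of 10 higher and 5 lower (39.5 to 46.0 in wt, 54.1 to 86.7 in ko). Prss34, a basophil protease, fell by 8.10 on the log2 scale (SE 0.56, adjusted p = 3.57e-05 in limma), being well above background on 2 of 4 ko arrays. In RUNX1-ERt2 against ERt2, the basophil and mast cell list had 4 of 10 higher and 2 lower (97.0 or more in ERt2, 53.0 to 70.8 in RUNX1-ERt2), and 3 of 13 erythroid genes passed, each higher (90.3 to 163 in ERt2, 144 to 183 in RUNX1-ERt2). The part of these shifts in the Dtx4 and Notch4 results was not tested.

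Of the 12160 named genes well above background on all 12 arrays, 3 were named as most like Dtx4 by Pearson correlation over the arrays: Prss57, a serine protease of neutrophil granules, Ttc39c and Gpr160, each with r = 0.98. The points share 4 slides, and the correlation describes these arrays only. Prss57 had group means of 1.00 in wt, −1.11 in ko, 1.53 in ERt2 and −0.01 in RUNX1-ERt2, and Dtx4 of 1.93, 0.27, 2.45 and 1.09. Both had the order ERt2, wt, RUNX1-ERt2 and ko. No such list was made for Notch3, which was not well above background on all arrays.

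The target genes Hes1 (chr16:30067820-30067879, mm9) and Heyl (chr4:122926975-122927034, mm9) are transcriptional repressors that Notch activates in many tissues. Their processed signals were 4.42 to 16.5 and 3.37 to 7.84, and both were well above background on 0 of 12 arrays. In level, Hes1 lay between −7.88 and −6.69 in wt, −8.32 and −6.09 in ko, −7.40 and −7.22 in ERt2 and −7.58 and −7.45 in RUNX1-ERt2. Heyl lay between −8.29 and −7.62 in wt, −8.41 and −8.10 in ko, −7.42 and −7.24 in ERt2 and −7.62 and −7.47 in RUNX1-ERt2. Neither groups' order nor fold changes can be read from signals at this level.

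Counted over the genes, 2 of 7 tested passed the threshold in ko against wt, Notch3 higher and Dtx4 lower. Over all genes tested, 25.3% passed (11.5% higher and 13.8% lower), so the share of Notch genes was near the background. The same 2 genes had groups that did not overlap, which held for 23.3% of all genes (10.1% higher and 13.2% lower). The median difference of the 7 was −0.07, beside −0.05 over all genes. In RUNX1-ERt2 against ERt2, 1 of 7 passed, Notch4, beside 19.1% of all genes (8.87% lower). In the same comparison 6 of 7 did not overlap, 4 lower and 2 higher, beside 58.9% of all genes (29.8% lower and 29.1% higher). The median of the 7 was −1.14 there, beside 0.00 over all genes. In ERt2 against ko, 4 of 7 passed, Notch1 lower and Dtx4, Notch4 and Rbpj higher, beside 56.9% of all genes (30.2% higher and 26.7% lower), with medians of 0.33 and 0.06. Groups did not overlap for 3 of 7, Dtx4 and Notch4 higher and Notch1 lower, beside 63.0% of all genes (33.9% higher and 29.1% lower). That comparison shares its ko arrays with ko against wt and its ERt2 arrays with RUNX1-ERt2 against ERt2.

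Notch4 was higher in ERt2 than in ko by 0.80 ± 0.20 (SE), or 1.74-fold (limma, adjusted p = 0.00713), and this call ended without ERt2 replicate 1 (0.62, adjusted p = 0.0716) and with normexp (0.72, adjusted p = 0.104). Notch3 differed by −0.60 (95% interval −1.72 to 0.51, adjusted p = 0.318) and Jag2 by 0.41 (−0.73 to 1.55, adjusted p = 0.509) in the same comparison. Scaling to the array median moved the median of all genes in ERt2 against ko from 0.06 to 0.25, and the share of calls that were higher from 53.1% to 64.2%. The series matrix gave 0.24 and 63.3%. For ko against wt that share moved from 45.5% to 57.4% and 58.7%.

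**Figure D3:**
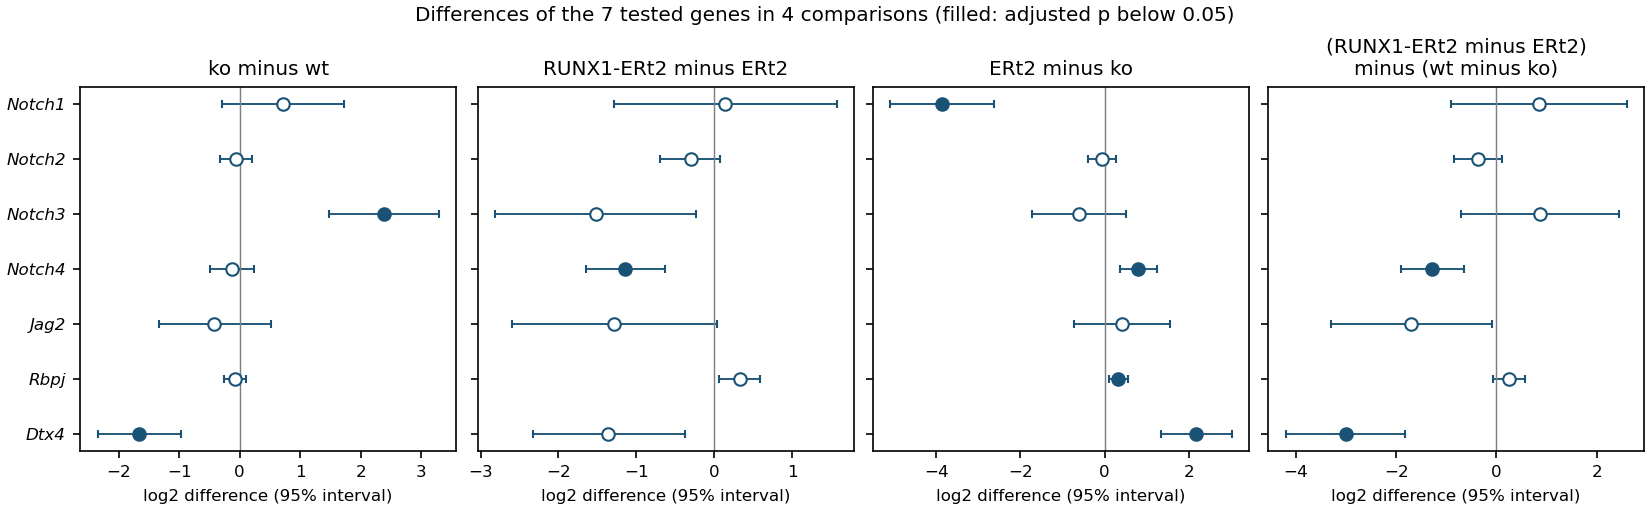
Log2 differences with 95% intervals of the 7 tested genes in ko against wt, RUNX1-ERt2 against ERt2, ERt2 against ko, and the difference between the RUNX1 effects in transplanted and native cells; filled points passed an adjusted p of 0.05. Notch3 (2.39) and Dtx4 (−1.66) passed in the first panel, Notch4 (−1.14) in the second, 4 genes in the third, and Dtx4 (−3.01) and Notch4 (−1.28) in the last.

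Whether restored RUNX1 moved each gene as the intact alleles did was asked by setting RUNX1-ERt2 minus ERt2 against wt minus ko, 2 differences that share no arrays. A value of 0 would mean equal effects. Dtx4 gave −3.01 ± 0.53 (SE, limma, adjusted p = 0.005): it was higher where Runx1 was intact than where it was deleted, and the RUNX1-ERt2 arrays lay below the ERt2 arrays. Notch4 gave −1.28 ± 0.28 (SE, adjusted p = 0.0133), a call that ended with normexp (−1.19, adjusted p = 0.16) and without RUNX1-ERt2 replicate 2 (−1.20, adjusted p = 0.0561). Notch3 was lower in wt than in ko and on both RUNX1-ERt2 arrays than on both ERt2 arrays. Its value of 0.86 (95% interval −0.71 to 2.44, adjusted p = 0.436) does not show that the effects are equal. For Jag2 the value was −1.70 (−3.31 to −0.09, adjusted p = 0.135), and −2.83 (adjusted p = 0.00241) without ERt2 replicate 2. Of the 7 genes 2 passed, both with negative values, beside 18.2% of all genes (8.75% negative and 9.42% positive).

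The other genes of the pathway were taken from 7 lists by role, whose counts stand beside 25.3% of all genes in ko against wt (11.5% higher and 13.8% lower) and 19.1% in RUNX1-ERt2 against ERt2 (10.2% higher and 8.87% lower). Of 6 other ligands and ligand-like genes tested, 2 passed in ko against wt, both higher: Dlk1, an imprinted Delta-like surface protein, by 5.50 ± 0.24 (SE, limma, adjusted p = 3.23e-06), and Egfl7, a secreted protein that binds Notch receptors, by 0.63 ± 0.14 (adjusted p = 0.0124). With RUNX1-ERt2 Egfl7 was lower than with ERt2 by 1.47 (SE 0.20, adjusted p = 0.00105) and Dlk2 higher by 0.58. The canonical ligands Dll1 and Dll4 passed the filter in no group.

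Of 6 genes that glycosylate the receptors, Mfng and Lfng, fringe enzymes that set ligand preference, were higher in ko by 0.79 ± 0.09 (SE, limma, adjusted p = 0.000471) and 0.62 ± 0.19 (adjusted p = 0.0407), while the third fringe, Rfng, fell by 0.27. Mfng fell by 0.99 with RUNX1-ERt2 against ERt2, as did Poglut1 by 0.42, and Eogt rose by 1.11. Of 9 genes of receptor cleavage, Furin, the protease of the first cut, was higher in ko by 1.06 ± 0.12 (SE, adjusted p = 0.00052) and Adam17, a protease of the cut outside the membrane, lower (−0.44). Furin also fell by 0.67 with RUNX1-ERt2, as did the gamma-secretase subunit Aph1b by 0.87.

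Of 17 trafficking and ubiquitin ligase genes, 7 passed in ko against wt, each higher, among them the Neuralized ligase Neurl3 (1.16), Nedd4 (0.76), Numbl (0.71) and Arrb1 (0.71). In RUNX1-ERt2 against ERt2, 2 passed, Arrb1 (−1.10) and the Notch inhibitor Numb (−0.61), both lower. Of 11 nuclear coactivators, 4 were higher and 1 lower in ko. The higher ones were the Mastermind genes Maml2 (0.95), Maml3 (0.75) and Maml1 (0.40), which join Rbpj and the cleaved receptor on DNA, and the Mediator subunit Med12 (0.36). With RUNX1-ERt2, Maml2 was higher by 1.13 and Med12 fell by 0.62.

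Of 17 corepressors of Rbpj, 5 passed in ko against wt, each higher, among them the Groucho-family genes Tle6 (0.65) and Tle4 (0.34). In RUNX1-ERt2 against ERt2, 3 passed as higher, among them Tle2 (1.10) and the histone demethylase Kdm5a (0.92), and 3 as lower, among them Tle6 (−1.09). Of 16 other target genes, 4 were higher and 2 lower in ko. Gata3, a transcription factor of T and other lymphoid cells, was higher by 2.36 ± 0.21 (SE, limma, adjusted p = 0.000152) and the inhibitor of differentiation Id1 by 1.46. Runx1 itself, higher by 1.69, is also counted among the 4. It is the gene that the design alters, so its signal cannot be read as that of a Notch target. Hes5, a repressor related to Hes1, was lower by 1.80 (SE 0.18, 3.49-fold, adjusted p = 0.000272).

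In RUNX1-ERt2 against ERt2, 4 of the 16 target genes were higher and 3 lower, the latter counting Runx1 itself, which the design alters. Cdkn1a, a brake on the cell cycle, was higher by 2.73 ± 0.37 (SE, limma, adjusted p = 0.00113), and Ccnd1, the cyclin D1 gene, fell by 1.96 (SE 0.26, adjusted p = 0.000909). Tcf7, a T cell transcription factor, was well above background on both RUNX1-ERt2 arrays and neither ERt2 array. It was at least 2.01-fold higher, taking the lowest signal well above background on each ERt2 array as its limit (limma, adjusted p = 0.00504). Tcf7 met the filter through RUNX1-ERt2 alone, the group where it was high, so its call is not independent of the filter. For Nrarp, a feedback inhibitor of Notch, and Rbpjl, an Rbpj relative, which passed the test, the signal was too close to background for a fold.

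**Figure D4:**
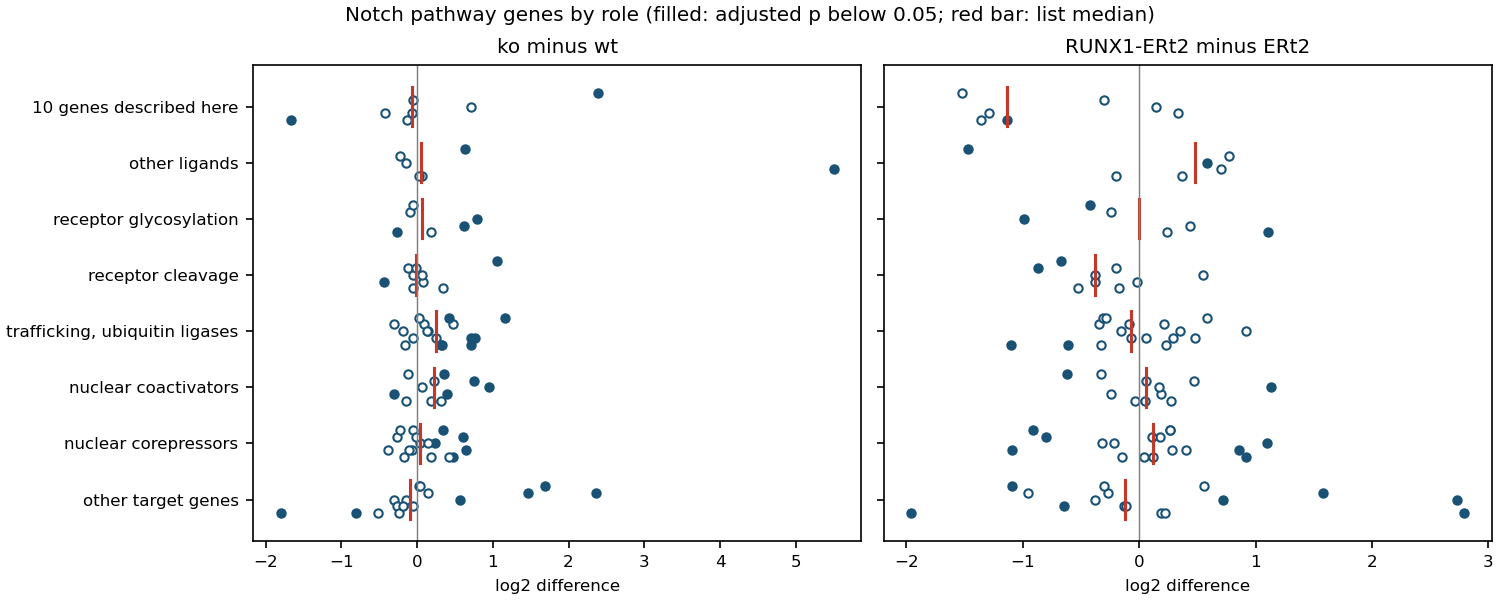
Log2 differences of the tested genes of the 10 described here and of 7 role lists in ko against wt (left) and RUNX1-ERt2 against ERt2 (right); each point is a gene, filled where its adjusted p was below 0.05, and red bars are list medians. In ko against wt all 7 filled points of the trafficking and ubiquitin ligase list lie above 0, and the farthest point is Dlk1 at 5.50.

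Sequence before the start sites was looked at because the study asks which genes depend on Runx1. Windows of 250 bases before the start, from RefSeq (GRCm38.p6), were matched for 7 of the 10 genes, Notch1 to Notch4, Jag1, Jag2 and Rbpj (8 windows, since Rbpj has a pair of starts). Those of Hes1, Heyl and Dtx4 were not analysed here. The RUNX core site was searched on both strands as the hexamer TGTGGT, which 14.0% of all 32851 such windows hold, and in the rarer form TGCGGT, which 5.1% hold. Neither occurs in the 8 windows, while 18.6% of all windows hold at least 1 of them. TGGGAA, the core of the Rbpj site, occurs in the Rbpj windows only, and in 21.6% of all windows. A match is a description of letters and not a bound site, and the lack of one says nothing of RUNX1 binding elsewhere. Windows are given for Notch3 (chr17:32166891-32167140, minus strand), which passed the test in ko against wt, and Notch4 (chr17:34564045-34564294, plus strand), which passed in RUNX1-ERt2 against ERt2. The first Rbpj window (chr5:53590096-53590345, plus strand) is given as well. Each is written 5′ to 3′ on the gene's strand. TGGGAA or its reverse complement is in capitals in the Rbpj window, 149 and 65 bases before the start.
Notch3: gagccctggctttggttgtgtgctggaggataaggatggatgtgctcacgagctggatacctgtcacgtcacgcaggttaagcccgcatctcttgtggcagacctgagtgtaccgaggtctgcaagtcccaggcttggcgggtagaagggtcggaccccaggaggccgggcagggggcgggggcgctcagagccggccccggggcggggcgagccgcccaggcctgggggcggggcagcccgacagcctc
Notch4: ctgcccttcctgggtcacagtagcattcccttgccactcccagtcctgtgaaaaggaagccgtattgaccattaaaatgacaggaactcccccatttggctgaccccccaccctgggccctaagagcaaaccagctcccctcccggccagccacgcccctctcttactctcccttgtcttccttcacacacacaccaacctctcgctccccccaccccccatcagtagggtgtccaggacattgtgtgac
Rbpj: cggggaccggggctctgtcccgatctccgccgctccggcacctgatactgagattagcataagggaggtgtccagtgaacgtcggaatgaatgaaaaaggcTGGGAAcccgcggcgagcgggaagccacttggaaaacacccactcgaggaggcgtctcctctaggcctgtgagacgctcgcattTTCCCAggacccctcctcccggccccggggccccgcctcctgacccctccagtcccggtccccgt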

How the data were processed

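Per the labels' protocols, RNA of sorted GMP was labelled with Cy3 and hybridised to 12 one-colour arrays. Per the file headers, the deposited intensity values are processed signals of Agilent Feature Extraction after its own background subtraction, and nothing scales them between arrays. The submitters' processing notes give version 9.1, the headers a later one. The value table deposited by the authors in the series matrix gives this signal divided by a number near the median of the array (column medians 0.91 to 0.94). For 8 wt and ko columns it matched another replicate of the same group, and it served as an alternative only.

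Flagged outlier spots (129 to 207 per array) and control spots were left out, and log2 signal was taken minus each array's 75th percentile. Probes were named through accessions (27228), symbols (3581) or synonyms (565) in a RefSeq table, and 8055 kept the file's name. A probe was tested if all arrays of some group had it well above background (23469 of 39429), with the brightest probe standing for its gene. Where 1 group was well above background on no array, a fold is a lower bound against the lowest signal well above background. limma 3.58.1 (R 4.3.3) fitted group means and a slide term over all 12 arrays, with 7 residual and 2.11 prior degrees of freedom, and Benjamini-Hochberg adjustment ran over 17905 genes (threshold 0.05). The slide term describes the wt and ko arrays, and ko and wt are means over both slides. The fit was tested on simulated data. The number of arrays limits the precision.

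All 10 genes are named. Of each other list, up to 4 genes with the largest change past the threshold in each of ko against wt and RUNX1-ERt2 against ERt2 are named, or the gene with the smallest p, with 1 gene not reported here; of each marker list with more than 3 calls, up to 2 genes; and the 3 genes most like each gene that passed in ko against wt and was well above background on all arrays. The genes and lists were chosen with earlier results of these data known. Same-numbered wt and ko arrays deviated together (correlations 0.18 to 0.67), and these arrays also share slides. Within slides the correlations were −0.03 and 0.43, so pairing beyond the slide was not shown. The main fit holds a slide term and does not pair arrays. For ERt2 and RUNX1-ERt2 the correlation was −0.19. Alternatives were the background correction, scaling, quantile normalization, the filter, the slide term, the replicate block, the probe choice, the arrays fitted and leaving out each array.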

Additional observations from a re-analysis of the deposited data

Results flagged for a closer look

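Among 26 sets of 4 arrays, 1 array stood far from the other 3 in 6, by Dixon's ratio of its gap to the group's range against its 95% critical value. Chance flags about 1 in 20 groups. The ratio was 0.91 for Notch3 in wt, where replicate 2 was high, 0.90 for the brighter Notch2 probe in wt, where replicate 3 was low, and 0.89 for Hes1 in ko, where replicate 4 was high though not well above background. It was 0.84 for Dtx4 in ko, where replicate 4 was low, 0.84 for the dimmer Rbpj probe in wt, where replicate 4 was high, and 0.83 for the brighter Notch2 probe in ko, where replicate 2 was low.

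The effect of RUNX1 differed between transplanted and native cells for 2 genes by limma's test of the difference between both differences. The value was −3.01 for Dtx4 (adjusted p = 0.005) and −1.28 for Notch4 (adjusted p = 0.0133). In the transplanted groups slide and group cannot be told apart.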

How the results depend on the processing

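Of the 661 values for single genes under 24 alternatives, 627 kept their direction and side of the threshold, 16 fell short of it, 12 newly passed it and 6 reversed. With normexp, 1 Notch gene passed in ko against wt (main 2), 2 in ERt2 against ko (main 4), 1 in the contrast of differences (main 2) and 0 in RUNX1-ERt2 against ERt2 (main 1; 0 also without ERt2 replicate 1), where limma gave 2 and 3 genes at an unadjusted p below 0.05. The counts over all genes with normexp were 1979 in ko against wt (main 4536), 1390 in RUNX1-ERt2 against ERt2 (main 3418), 6424 in ERt2 against ko (main 10186) and 1250 in the contrast of differences (main 3253). Keeping only probes well above background on all arrays left 1 call in ko against wt, since Notch3 is then not tested, and gave 2 in RUNX1-ERt2 against ERt2. Fitting the compared arrays alone gave 1653 genes in RUNX1-ERt2 against ERt2, with fewer arrays behind the spread, and no filter gave 15471 genes in ERt2 against ko.

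With the replicate number as a block, 2 Notch genes passed in RUNX1-ERt2 against ERt2, and the block changed no call other than those of Dtx4 there and Rbpj in ERt2 against ko. Crossing the ERt2 and RUNX1-ERt2 numbers, chosen after seeing the data, gave 3 calls there (4201 over all genes).

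Leaving out 1 array at a time gave 2 to 3 Notch genes in ko against wt, 0 to 2 in RUNX1-ERt2 against ERt2, 2 to 4 in ERt2 against ko and 1 to 3 in the contrast of differences. Over all genes it gave 2861 to 4835, 2179 to 3685, 7462 to 10521 and 1881 to 3467. Without wt replicate 2 the count in ko against wt was 2861, without wt replicate 1 it was 2950, without ko replicate 1 it was 2881 and without ko replicate 4 it was 2863. Without ERt2 replicate 1 the count in RUNX1-ERt2 against ERt2 was 2218, and without RUNX1-ERt2 replicate 2 it was 2179. In the contrast of differences it was 1881 without ERt2 replicate 2 and 2002 without RUNX1-ERt2 replicate 2. Where that leaves a group with 1 array, the array is assumed to vary like the other groups.

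The reversals were of differences that did not pass the test in the main setting. Notch2 in ko against wt turned to 0.07 with the mean of its probes and 0.04 without ko replicate 2 (−0.18 to 0.04 over the arrays left out). In ERt2 against ko Notch2 turned to 0.13 with the array median, 0.12 with the series matrix and 0.34 with the mean of its probes, and Jag2 to −0.72 without ERt2 replicate 1 (−0.72 to 1.54 over the arrays left out). The causes were not tested. Hes1, Heyl and Jag1 have no alternative with a call that could be read, since signal over background limits them on every array.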
